A study of Tupaia belangeri chinensis with 12 samples.

Results

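The genes described here are the nuclear genes for the machinery of oxidative phosphorylation, as they appear in RNA from 4 cortical layers of Chinese tree shrew fetuses. They were chosen by name alone: symbols starting with NDUFA, NDUFB, NDUFC, NDUFS or NDUFV (complex I and its NDUFAF assembly factors), the 4 SDH subunit genes SDHA to SDHD (complex II), UQCR and CYC1 (complex III), CYCS (cytochrome c), COX4 to COX8 (complex IV) and ATP5 (ATP synthase). Entries that the deposited tables name as copies, with the letters li and a number after the symbol, were left out of the list. This gave 88 genes of the 81414 gene IDs kept from the tables. The name rule uses no expression value, but it was set with earlier results of these data known.

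Oxidative phosphorylation takes electrons from NADH and succinate through complexes I and II to complex III, cytochrome c and complex IV, and the proton gradient built on the way drives ATP synthase. Most subunits are encoded in the nucleus and imported, and a small catalytic set is encoded in mitochondrial DNA. In the developing cortex, dividing progenitors are known to rely more on glycolysis and differentiating neurons more on mitochondrial respiration. Gene roles given below are those known from human and mouse.

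The 12 libraries comprise 3 each of the cortical plate (CP), where settled neurons collect, the outer subventricular zone (OSVZ), the inner subventricular zone (ISVZ) and the ventricular zone (VZ), the germinal layers in which progenitors divide. All are labelled embryonic day 37, although the names of the deposited tables carry an earlier day, and the labels name no genotype, strain or treatment for any group. Layers were cut by laser from Nissl-stained frozen sections, and poly(A) RNA was sequenced. The labels do not tell whether the 3 libraries of 1 layer are from different fetuses, and the p-values therefore rest on a spread between samples that may be only technical. Levels are gene FPKM (fragments per kilobase of transcript, scaled to library size), already normalised for length and depth by the authors and here scaled by 1 factor per library, from 0.947 to 1.06. Read counts were not used and sequencing depth in reads is not known; the deposited tables' own bounds lie within 8.51% of the value for the median tested gene of the list, with a range of 3.82% to 200%. The CP label was checked on marker lists: 6 of 6 neuron markers were higher in CP than in the germinal layers. There, 5 of 5 radial glia markers and 3 of 3 markers of dividing cells were lower. CP was also lower in 7 of 7 microglia markers, with sums of 1.03 to 2.18 in CP and 7.7 or more in germinal libraries. Meninges marker sums were 14.2 to 19.0 in CP, 1.23 to 1.28 in OSVZ, 0.527 to 1.32 in ISVZ and 2.17 to 7.73 in VZ. Of 2 tested meninges markers 1 was higher in CP. The part of these cell types in the CP differences was not tested. Against VZ, OSVZ was lower in 5 of 5 radial glia, 3 of 3 dividing cell and 4 of 4 outer radial glia markers. It was higher in 5 of 6 neuron markers. The outer radial glia sums were 98.0 to 138 in OSVZ and 352 to 375 in VZ, so these markers do not bear out the OSVZ label. A layer holds a mixture of cells, so fewer cells of a type and less RNA per cell cannot be told apart.

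Of the 88 genes, 62 reached 1 scaled FPKM in at least 3 libraries and were tested among 14101 genes. They comprise 5 of the 6 complex I core subunits, 24 of the 28 accessory subunits, 6 of the 7 assembly factors, 3 of the 4 complex II genes, 8 of the 9 complex III genes, 7 of the 18 complex IV genes and 9 of the 15 ATP synthase genes. The 88 genes summed to between 2929 scaled FPKM in OSVZ 1 and 4016 in CP 2, which was 1.16% to 1.48% of all FPKM in a library. Of the tested genes, 10 averaged 100 scaled FPKM or more over the 12 libraries, 33 averaged 10 to 100, and 19 averaged less than 10.

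The highest single level was that of NDUFC2, an accessory subunit in the membrane arm of complex I, at 347 ± 50.5 scaled FPKM in CP, 291 ± 46.9 in OSVZ, 304 ± 31.3 in ISVZ and 285 ± 51.2 in VZ (SD, n = 3 each). ATP5F1B, the catalytic beta subunit of ATP synthase, followed at 342 ± 44.8 in CP, 256 ± 12.4 in OSVZ, 287 ± 45.9 in ISVZ and 302 ± 43.6 in VZ. COX5B, which binds zinc in complex IV, stood at 187 ± 43.9 in CP, 162 ± 9.71 in OSVZ, 180 ± 19.9 in ISVZ and 178 ± 29.1 in VZ. CP overlapped each germinal layer for NDUFC2 and COX5B, and for ATP5F1B it overlapped ISVZ and VZ and lay above OSVZ. UQCR10, a small subunit of complex III, had 137 ± 15.1 in CP, 125 ± 3.19 in OSVZ, 131 ± 17.9 in ISVZ and 136 ± 14.5 in VZ. COX4I1, the general form of the regulatory subunit of complex IV, had 113 ± 16.4 in CP, 100 ± 9.85 in OSVZ, 106 ± 15.8 in ISVZ and 108 ± 18.9 in VZ. None of these 5 passed the test in CP against the germinal layers, and their 95% intervals of the log2 difference all lay between -0.24 and 0.56.

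Across the layers the list was flat beside other genes. The highest layer mean was less than 1.5 times the lowest for 52 of the 62 tested genes (83.9%), against 37.9% of all genes tested, and the median ratio was 1.27 against 1.71. Only 6 reached a ratio of 2 or more, namely COX4I2, COX7A1, NDUFA4L2, NDUFAB1, NDUFAF4 and UQCRQ, all of which averaged below 10 scaled FPKM. For NDUFAB1 and UQCRQ an entry named as a copy was more abundant than the plain symbol. The limma F test over the 4 layers called 9 of the 62 (14.5%) at an adjusted p below 0.05, where 51.8% of all genes tested were called. These were NDUFS7, ATP5F1D, COX7A1, NDUFA5, NDUFAF4, NDUFB1, SDHC, NDUFAF5 and COX4I2.

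In CP against the mean of the 3 germinal layers, 7 genes of the list were higher and 7 were lower, 14 of 62 or 22.6%. Of all genes tested 52.7% were called, 24.0% as higher and 28.7% as lower. Among the lower genes, COX4I2 and NDUFA4L2 passed the filter only through germinal libraries. The median log2 difference was 0.08 for the list, 0.02 without CP 2 and 0.20 without CP 3, and -0.05 for all genes. The median absolute difference was 0.20 against 0.39, at a median standard error of 0.12 against 0.13. A difference of 1 or more on the log2 scale was reached by 2 of the 62 (3.23%) and by 16.1% of all genes. The 95% interval lay wholly within 1 log2 unit of no difference for 55 of the 62 (88.7%) and for 67.6% of all genes. Among genes averaging 10 scaled FPKM or more, 9 of 43 genes of the list were called (20.9%), against 56.6% of 4778 genes. The number of calls depended on single libraries and on scaling: the higher calls were 2 without CP 2 and 12 without CP 3, the lower calls 3 without CP 3. Over the 12 libraries left out in turn, 12.9% to 24.2% of the list were called, against 44.5% to 53.7% of all genes tested. With FPKM as deposited 4 were higher and 8 lower, with equal totals 6 and 9, and with quantile normalisation 4 and 9. For these 3 scalings no share over all genes is given.

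**Figure D1:**
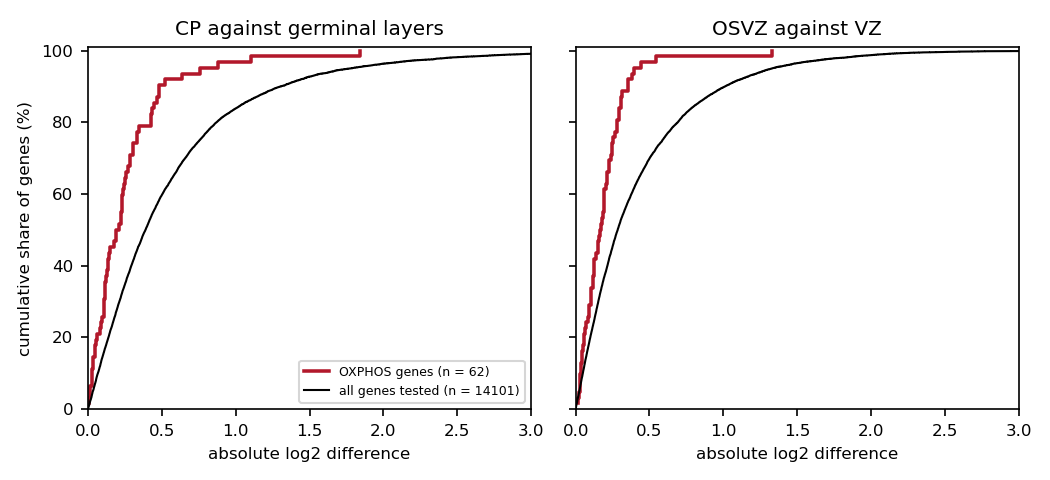
Cumulative share of genes (%) against the absolute log2 difference in CP against the germinal layers (left) and OSVZ against VZ (right), for the 62 tested oxidative phosphorylation genes (red) and all 14101 genes tested (black). The red curve lies left of the black one, with medians of 0.20 against 0.39 on the left and 0.17 against 0.28 on the right.

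Complex I takes electrons from NADH, and its core subunits carry the flavin and the iron-sulfur clusters. NDUFS7, which holds the last cluster before ubiquinone, had 42.5, 61.7 and 47.6 scaled FPKM in CP, 31.6, 36.3 and 44.6 in OSVZ, 31.3, 40.5 and 41.2 in ISVZ, and 29.5, 32.9 and 26.9 in VZ. The CP libraries were mostly the higher ones, but CP 1 lay within the range of the germinal libraries. The log2 difference was 0.52 ± 0.14 (SE; limma adjusted p = 0.00808), and without CP 2 the adjusted p was 0.0568. NDUFS1, the largest core subunit, had 25.9, 25.2 and 19.4 in CP, against 16.2 to 22.8 (median 18.0) in the 9 germinal libraries. CP 1 and CP 2 stood above all germinal libraries and CP 3 lay among them. Its difference was 0.30 ± 0.11 (limma adjusted p = 0.0330), and its call was lost on leaving out VZ 3, ISVZ 1, ISVZ 3, OSVZ 1, OSVZ 2, CP 1 or CP 2 (adjusted p 0.0510 to 0.152), with no filter, with FPKM as deposited and with quantile normalisation (0.0775 to 0.0865); it overlaps EEF1B2, which averaged 217 scaled FPKM. No other tested core subunit passed, among them NDUFV1 with a log2 difference of 0.14 and NDUFV2 with -0.21. NDUFS3 stood below the filter.

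Among 24 tested accessory subunits of complex I, 2 were higher in CP and 2 lower, with a median log2 difference of 0.06. NDUFB1, a small subunit of the membrane arm, had the largest called difference among genes averaging 10 scaled FPKM or more, with 28.8, 31.9 and 27.0 scaled FPKM in CP, 16.7, 18.7 and 18.0 in OSVZ, 15.2, 17.6 and 15.8 in ISVZ, and 18.8, 17.7 and 13.7 in VZ. Every CP library was above every germinal library. Its difference was 0.76 ± 0.10 (limma adjusted p = 7.8e-05), and it kept its call under all 22 alternatives run. NDUFB2, also of the membrane arm, had 29.6, 37.1 and 28.7 in CP, against 16.0 to 30.1 (median 23.4) in the germinal libraries, a difference of 0.43 ± 0.16 (limma adjusted p = 0.0423). The highest germinal library, OSVZ 3, was above CP 1 and CP 3. The call was lost without VZ 3, ISVZ 1, ISVZ 2, OSVZ 1, OSVZ 2 or any 1 CP library (adjusted p 0.0563 to 0.187), and with no filter or any of the 3 other scalings (0.0565 to 0.129).

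The other called accessory subunits were lower in CP. NDUFA3, a membrane-arm subunit and the second most abundant gene of complex I, had 150, 260 and 163 scaled FPKM in CP, against 198 to 334 (median 260.3) in the germinal libraries. CP 1 and CP 3 were below all germinal libraries, whereas CP 2 was at their median. The difference was -0.47 ± 0.18 (limma adjusted p = 0.0473), and it was not called without VZ 2, VZ 3, ISVZ 2, ISVZ 3, OSVZ 2, OSVZ 3, CP 1 or CP 3 (adjusted p 0.0573 to 0.232), nor with no filter, with no intensity trend in the variance or without both VZ 1 and VZ 2 (adjusted p up to 0.146). NDUFS6, a zinc-binding subunit, had 18.9, 27.4 and 20.9 in CP, against 24.7 to 34.95 (median 27.4) in the germinal libraries, with the same 2 CP libraries below all others. Its difference was -0.33 ± 0.11 (limma adjusted p = 0.0261), with adjusted p of 0.107 to 0.162 when CP 1 or CP 3 was left out and of 0.0671 to 0.0692 with no filter or without both VZ 1 and VZ 2. The 20 accessory subunits that were not called ranged in level from NDUFAB1, the mitochondrial acyl carrier protein, at 2.00 ± 1.02 in CP, 1.07 ± 0.471 in OSVZ, 0.823 ± 0.501 in ISVZ and 1.505 ± 0.788 in VZ, up to NDUFC2. NDUFAB1 has a more abundant copy, NDUFAB1li1, which averaged 7.79 scaled FPKM over the 12 libraries, and the sum of gene and copies differed by 0.34 ± 0.13 in CP (limma adjusted p = 0.0397). The plain entry spans 471 bases and NDUFAB1li1 spans 17635, and which of them is the working gene is not known. NDUFA12 averaged 8.07 and its copy NDUFA12li1 averaged 55.9, and neither was called in CP.

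**Figure D2:**
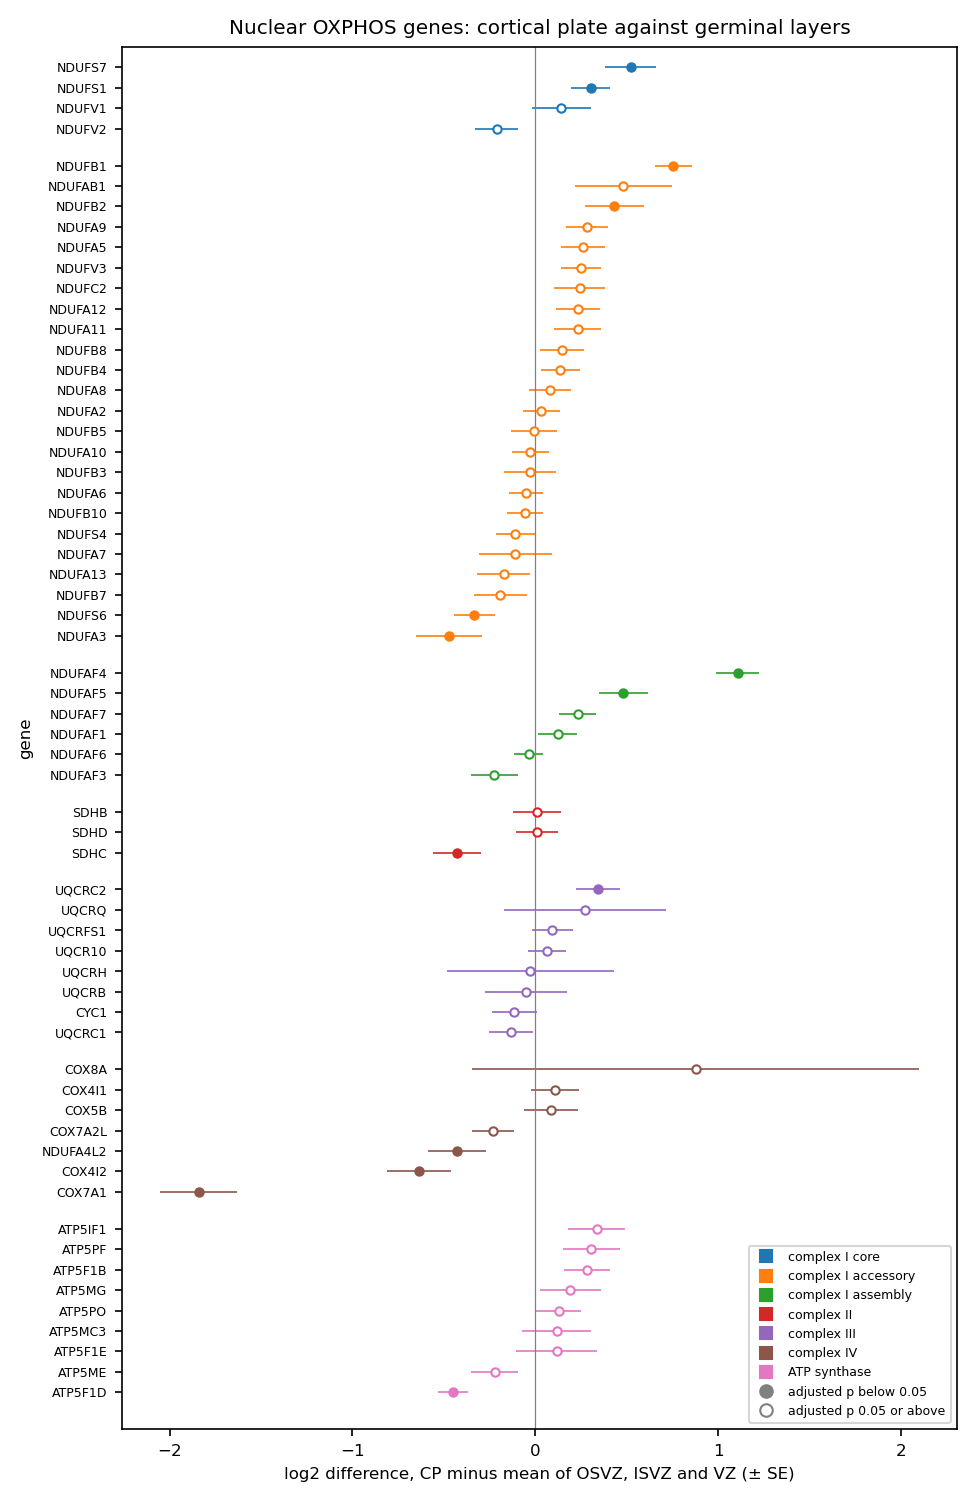
Log2 difference (± SE) in CP against the mean of OSVZ, ISVZ and VZ for the tested genes, grouped by complex, with 1 gene not shown; filled points passed the limma test at an adjusted p below 0.05. Most points lie within 0.5 of 0; COX7A1 at -1.84 and NDUFAF4 at 1.11 are farthest out among the called genes, and COX8A has the widest error.

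The assembly factors of complex I, which build the complex and are not part of it, held the largest positive difference among the called genes of the list. NDUFAF4 had 4.06, 4.30 and 4.23 scaled FPKM in CP, 1.39, 1.80 and 2.10 in OSVZ, 0.951, 1.06 and 1.51 in ISVZ, and 1.23, 1.65 and 1.25 in VZ. The CP libraries lay close together and all above the germinal ones. The difference was 1.11 ± 0.12 (limma adjusted p = 1.59e-05), and the call held under all 21 alternatives that tested it. NDUFAF5, a hydroxylase that acts on NDUFS7, had 5.86, 6.34 and 4.47 in CP, against 2.91 to 4.73 (median 3.72) in the germinal libraries. CP 1 and CP 2 stood above all germinal libraries and CP 3 among them. Its difference was 0.48 ± 0.13 (limma adjusted p = 0.0104), and the adjusted p was 0.0594 without CP 2; it overlaps ESF1li1, which averaged 9.64 scaled FPKM. NDUFAF7, the most abundant assembly factor and a methyltransferase, had 14.3 ± 2.21 in CP, 11.3 ± 0.331 in OSVZ, 11.4 ± 1.37 in ISVZ and 13.2 ± 0.976 in VZ and was not called (log2 difference 0.23, limma adjusted p = 0.0726). NDUFAF1, NDUFAF3 and NDUFAF6 had log2 differences of 0.12, -0.22 and -0.04.

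Complex II, succinate dehydrogenase, also belongs to the citric acid cycle. Its membrane anchor SDHC had 60.6, 69.1 and 43.9 scaled FPKM in CP, 61.3, 64.8 and 61.6 in OSVZ, 72.3, 87.2 and 77.6 in ISVZ, and 85.7, 109 and 82.5 in VZ. The VZ libraries were all above those of CP and OSVZ, and the 3 OSVZ libraries lay within the range of CP. The difference in CP against the germinal layers was -0.43 ± 0.13 (limma adjusted p = 0.0180) and -0.24 without CP 3 (adjusted p = 0.127); with no filter the adjusted p was 0.0574. The iron-sulfur subunit SDHB had 41.2 ± 9.71 in CP, 37.2 ± 2.51 in OSVZ, 39.5 ± 2.82 in ISVZ and 43.9 ± 4.78 in VZ. The other anchor, SDHD, had 30.3 ± 3.42 in CP, 26.0 ± 3.12 in OSVZ, 30.5 ± 4.59 in ISVZ and 34.5 ± 4.09 in VZ. Both had a log2 difference of 0.01 in CP, with 95% intervals of -0.28 to 0.30 for SDHB and -0.24 to 0.27 for SDHD. The flavoprotein SDHA was listed at 0 in all 12 libraries.

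In complex III, 1 of 8 tested genes was called. UQCRC2, a core protein that faces the matrix, had 95.5, 97.7 and 71.9 scaled FPKM in CP, against 61.3 to 84.7 (median 67.0) in the germinal libraries, with CP 3 among the germinal values. Its difference was 0.34 ± 0.12 (limma adjusted p = 0.0308), and the adjusted p was 0.128 to 0.140 without CP 1 or CP 2 and 0.0630 to 0.0833 with no filter, with FPKM as deposited and with quantile normalisation. Its partner UQCRC1 had 20.1 ± 1.53 in CP, 22.2 ± 3.26 in OSVZ, 21.7 ± 1.26 in ISVZ and 22.9 ± 4.49 in VZ, a log2 difference of -0.13. The haem protein CYC1 had 53.6 ± 9.60 in CP, 58.4 ± 6.83 in OSVZ, 57.1 ± 3.50 in ISVZ and 57.8 ± 8.81 in VZ, and the Rieske protein UQCRFS1 19.2 ± 2.15 in CP, 16.4 ± 0.957 in OSVZ, 17.1 ± 2.41 in ISVZ and 20.7 ± 3.45 in VZ; neither was called. UQCRQ was listed at 0 in 5 libraries and CYCS, the somatic cytochrome c, in all 12. The copies UQCRQli1, UQCRHli1 and UQCRBli3 averaged 57.0, 51.1 and 33.8 scaled FPKM, against 1.16, 4.03 and 1.29 for the plain symbols. UQCRQli1 was higher in CP, at 0.55 ± 0.21 (limma adjusted p = 0.0472), and UQCRHli1 and UQCRBli3 were not called. UQCRQ summed with its copies differed by 0.54 ± 0.22 (limma adjusted p = 0.0537).

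In complex IV and its isoform genes, 3 of 7 tested genes were called, all lower in CP and all averaging below 10 scaled FPKM. COX4I2 and NDUFA4L2 averaged only 0.707 and 0.922 and reached 1 in 4 and 5 libraries, all germinal. They entered the test only through the layers where they are higher, so their calls describe the levels and are no independent result. COX7A1, the heart and skeletal muscle form of subunit 7A, had 1.30, 0.821 and 1.85 scaled FPKM in CP, 3.54, 6.22 and 3.92 in OSVZ, 7.82, 4.42 and 7.45 in ISVZ, and 11.7, 17.0 and 10.2 in VZ. The layers were graded, with every CP library below every germinal one and every VZ library above all others. The difference in CP was -1.84 ± 0.21 (limma adjusted p = 2.84e-05), called under all 22 alternatives. COX4I2, the second form of subunit 4, known from lung and for a change of its level with oxygen, had 0.145, 0.239 and 0.189 in CP, against 0.430 to 1.45 (median 0.652) in the germinal libraries, without overlap. Its difference was -0.63 ± 0.18 (limma adjusted p = 0.0104), and -1.67 with a pseudocount of 0.1, since the log2(value + 1) scale understates changes of low genes.

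NDUFA4L2, the paralogue of NDUFA4 that is known to be induced in low oxygen, had 0.754, 0.475 and 0.335 scaled FPKM in CP, against 0.620 to 1.60 (median 1.04) in the germinal libraries. CP 1 lay among the germinal values. The difference was -0.43 ± 0.16 (limma adjusted p = 0.0405), and -0.91 with a pseudocount of 0.1. It was not called without VZ 1, VZ 3, ISVZ 1, ISVZ 3, OSVZ 3, CP 2 or CP 3 (adjusted p 0.0508 to 0.172), nor with no filter, with quantile normalisation or without both VZ 1 and VZ 2 (0.0631 to 0.117), and it overlaps SHMT2, which averaged 18.6 scaled FPKM. In the mouse brain, COX4I2 and NDUFA4L2 transcripts are known from pericytes. Of 10 mural cell markers, listed after the values were seen, 6 were tested and 4 of these were lower in CP, namely NOTCH3 at -1.79, PDGFRB at -1.53, RGS5 at -0.89 and MCAM at -0.55 on the log2 scale. The rest of those tested were not called, and the median of the 6 was -0.72. Of all genes tested 28.7% were lower. None of the 10 was at 0 in all libraries, and their summed level was 15.7 to 20.7 in CP, 31.7 to 35.5 in OSVZ, 26.9 to 37.7 in ISVZ and 39.7 to 50.1 in VZ. Of 5 endothelial markers 2 were lower in CP, with sums of 11.3 to 20.4 in CP, 23.8 to 29.7 in OSVZ, 20.0 to 27.9 in ISVZ and 21.4 to 25.3 in VZ. Their part in the 3 complex IV results was not tested.

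Among the general forms of complex IV subunits, COX4I1 and COX8A were tested, and neither was called in CP. No COX7A2 entry was in the list, and NDUFA4 stood below the filter and was not tested. COX4I1 was 0.11 ± 0.13 on the log2 scale in CP against the germinal layers (95% interval -0.18 to 0.40), and COX5B was 0.09 ± 0.15. COX7A2L, the 7A-related gene that joins complexes III and IV, had 85.3 ± 11.8 in CP, 94.1 ± 7.66 in OSVZ, 109 ± 8.51 in ISVZ and 97.8 ± 15.5 in VZ, a log2 difference of -0.23 ± 0.12 (limma adjusted p = 0.115). COX8A, the general form of subunit 8, was uneven: it was near 0 in OSVZ 1 and VZ 1 and 6.12 to 54.1 scaled FPKM in the other libraries, with a standard error of 1.22, and it overlaps OTUB1 at 67.1 scaled FPKM. The tissue-restricted COX6A2, COX7B2 and COX8C stayed below the filter, with highest values of 0.548, 0.336 and 0.230 scaled FPKM.

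**Figure D3:**
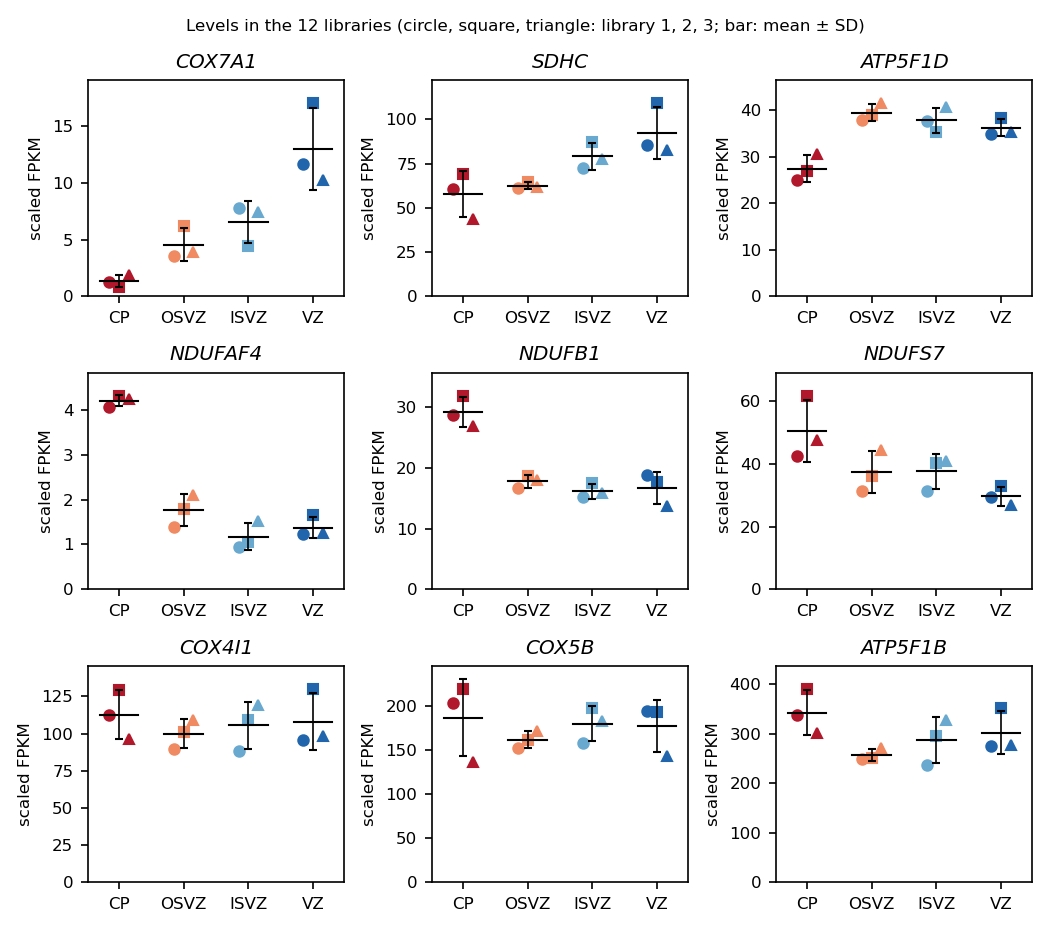
Scaled FPKM of 9 genes in the 12 libraries by layer (CP, OSVZ, ISVZ, VZ); points are libraries, and bars the mean ± SD of 3. COX7A1 averages 1.32 in CP, 4.56 in OSVZ, 6.57 in ISVZ and 13.0 in VZ, NDUFAF4 and NDUFB1 have all CP libraries above the rest, ATP5F1D has them all below, and for COX4I1, COX5B and ATP5F1B the CP libraries overlap the germinal ones.

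ATP synthase had 1 called gene among 9 tested, and it went against the sign of most of the group. ATP5F1D, the delta subunit of the central stalk, had 25.03, 26.9 and 30.6 scaled FPKM in CP, 37.9, 39.1 and 41.6 in OSVZ, 37.7, 35.3 and 40.7 in ISVZ, and 34.9, 38.3 and 35.5 in VZ. All CP libraries were below all germinal libraries. The difference was -0.45 ± 0.08 (limma adjusted p = 6.5e-04), and it was called under all 22 alternatives. ATP5ME, a membrane subunit, was the other gene with a negative value, at -0.22. The remaining 7 had positive values that did not pass, among them the inhibitor ATP5IF1 at 0.34, the coupling factor ATP5PF at 0.31 and ATP5F1B at 0.28 (limma adjusted p = 0.0750). In a limma fit with the library number as a block, ATP5IF1 and ATP5PF passed as higher (adjusted p = 0.0423 and 0.0482). Of the genes for the c subunit of the membrane ring, ATP5MC3 had 4.63 ± 1.40 in CP, 4.32 ± 0.577 in OSVZ, 3.79 ± 0.653 in ISVZ and 4.34 ± 1.43 in VZ, whereas ATP5MC1 and ATP5MC2 were listed at 0 in all libraries.

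In OSVZ against VZ, none of the 62 genes was higher and 3 were lower (4.84%), where 27.9% of all genes tested were called, 11.7% as higher and 16.2% as lower. The median log2 difference was -0.12 for the list, -0.05 without VZ 2 and -0.20 without VZ 3, and -0.02 for all genes. An unadjusted limma p below 0.05 was found for 10 of the 62 genes and for 5520 of all 14101 genes tested. COX7A1 had the largest difference, at -1.33 ± 0.26 (limma adjusted p = 0.00334), with all 3 OSVZ libraries below all 3 VZ libraries in the values given above. SDHC differed by -0.55 ± 0.16 (limma adjusted p = 0.0269), again without overlap, and was not called without VZ 2, OSVZ 1, OSVZ 2 or OSVZ 3 (adjusted p 0.0513 to 0.110), nor with no filter (0.0865). NDUFA5, an accessory subunit of the arm that faces the matrix, had 19.1, 27.3 and 24.1 scaled FPKM in OSVZ, against 34.3, 32.5 and 29.3 in VZ, without overlap. Its difference was -0.44 ± 0.15 (limma adjusted p = 0.0448), not called without any 1 VZ library or without ISVZ 3, OSVZ 1, OSVZ 3 or CP 3 (adjusted p 0.0569 to 0.162). It was also not called with no filter, with quantile normalisation, with no intensity trend or with the library number as a block.

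The number of lower calls in OSVZ against VZ was 1 without VZ 2, OSVZ 1 or OSVZ 3, 5 without VZ 3 or ISVZ 1, and 6 with equal totals. The choroid plexus transcript TTR was at 529 and 2514 scaled FPKM in VZ 1 and VZ 2 and at 33.8 in VZ 3, with summed choroid plexus marker levels of 43.9 to 2691 in VZ, 2.98 to 52.7 in ISVZ and 2.33 to 6.41 in OSVZ. Without VZ 1 and VZ 2 only 1 library is left in VZ, so whether the 3 calls hold without them cannot be decided. The log2 difference was then -1.05 for COX7A1 and -0.41 for SDHC. COX7A1 was at 10.2 scaled FPKM in VZ 3, against 3.54 to 6.22 in OSVZ. In CP against the germinal layers COX7A1 differed by -1.75 without VZ 1 and VZ 2. The part of choroid plexus tissue in the OSVZ and VZ difference was not tested.

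Between neighbouring germinal layers no gene of the list was called by limma. In ISVZ against VZ, 8.72% of all genes were called (7.18% as lower). There 2 of the 62 had an unadjusted limma p below 0.05, as had 3189 of all 14101 genes. The lowest adjusted p of the list was 0.0585, that of COX7A1 (log2 difference -0.89). In OSVZ against ISVZ, 0.603% of all genes were called. There 3 of the 62 had an unadjusted limma p below 0.05, as had 2821 of all 14101 genes, and the lowest adjusted p of the list was 0.211. The medians were -0.03 and -0.09 for the list, against -0.01 and -0.00 for all genes. OSVZ had the lowest layer mean for 30 of the 62 genes, CP for 16, ISVZ for 8 and VZ for 8, whereas OSVZ was lowest for 13.1% of all genes tested. The highest mean was in CP for 27, in OSVZ for 8, in ISVZ for 9 and in VZ for 18. Apart from genes lowest in OSVZ, no share over all genes is given beside these counts. They describe the list and are not read as particular to it.

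Within layers, the genes of the list moved together from library to library. The median log2 deviation from each gene's mean over the 12 libraries was 0.10, 0.20 and -0.14 in CP, -0.21, -0.06 and -0.03 in OSVZ, -0.16, 0.05 and 0.10 in ISVZ, and 0.04, 0.19 and -0.08 in VZ, while the median over all genes stayed between -0.04 and 0.02. No layer stood apart in this median, since the ranges of all 4 layers overlapped. CP 2 held the highest of the 3 CP values for 41 of the 62 genes (66.1%, against 31.4% of all genes) and CP 3 the lowest for 39 (62.9%, against 33.0%). OSVZ 1 and ISVZ 1 each held the lowest value of their layer for 47 (75.8%, against 31.8% and 34.7%), and VZ 2 held the highest VZ value for 37 (59.7%, against 32.6%). The standard errors given above include this shift, since they come from the spread between libraries of a layer.

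**Figure D4:**
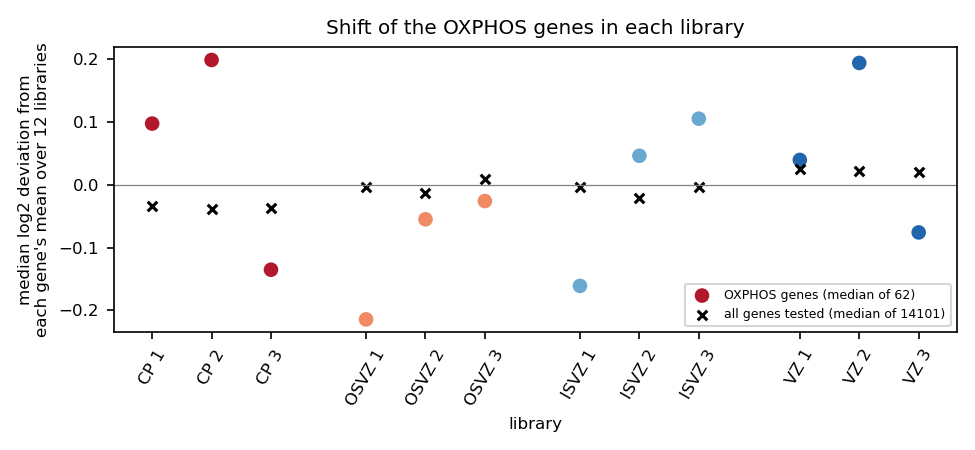
Median log2 deviation from each gene's mean over the 12 libraries, for the 62 tested oxidative phosphorylation genes (circles) and all 14101 genes tested (crosses), by library in the order CP, OSVZ, ISVZ, VZ. The circles span -0.21 in OSVZ 1 to 0.20 in CP 2, and the crosses stay near 0.

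Positions follow the deposited tables, whose genome build is not given. COX7A1 lies on chromosome 22 from 29123853 to 29145141, NDUFAF4 on chromosome 4 from 68468241 to 68517743 and NDUFB1 on chromosome 5 from 53844283 to 53863298. NDUFS7, higher in CP, and ATP5F1D, lower in CP, are near neighbours on chromosome 28, from 10192881 to 10198230 and from 10271342 to 10291880. SDHC lies on chromosome 8 from 68363204 to 68425069.

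The 26 genes below the filter were ATP5F1A, ATP5F1C, ATP5MC1, ATP5MC2, ATP5MF and ATP5MPL of ATP synthase, COX5A, COX6A1, COX6A2, COX6B1, COX6C, COX7B, COX7B2, COX7C, COX8B, COX8C and NDUFA4 of complex IV, NDUFA1, NDUFB6, NDUFB9, NDUFC1, NDUFS3 and NDUFAF2 of complex I, SDHA, UQCR11 and CYCS. Of these 13 were listed at 0 in all 12 libraries, and 17, these included, stayed below 0.2 scaled FPKM in every library. Several encode subunits that every respiring cell needs, such as the alpha and gamma subunits of ATP synthase (ATP5F1A and ATP5F1C), so a listed 0 is not read as absence. NDUFA4 had 0.0581, 0.0729 and 0.0149 scaled FPKM in CP, 0.580, 0.171 and 0.399 in OSVZ, 0.814, 0.538 and 0.936 in ISVZ, and 1.02, 1.09 and 0.985 in VZ, and overlaps the more abundant VPS51. The tables hold 85 entries named as copies of these genes, of which 28 were tested, and 11 of the 26 genes have a tested copy. For 9 of the 11 a copy averaged 10 scaled FPKM or more: ATP5F1Ali2 188, COX6B1li6 186, NDUFA4li1 159, COX5Ali2 116, ATP5F1Cli3 110, ATP5MC2li1 92.3, ATP5MFli2 82.5, COX7Bli1 77.4 and NDUFB9li1 57.1 scaled FPKM. Some plain entries are short: ATP5F1A spans 772 bases against 13887 for ATP5F1Ali2, and COX6B1 258 against 11108 for COX6B1li6. UQCRB spans 447 against 61916 for UQCRBli3. Plain NDUFA4, COX7B and NDUFB9 instead span more than the copies named here. A name as a copy therefore does not tell which entry is the working gene. How reads were shared between an entry and its copies is not stated by the labels or headers, and levels of single genes of these families are uncertain.

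**Figure D5:**
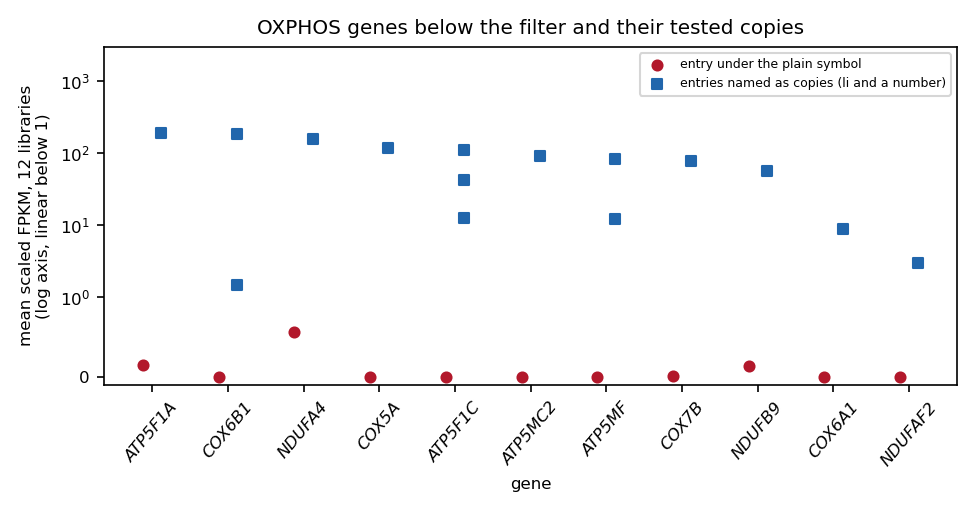
Mean scaled FPKM over the 12 libraries (log axis, linear below 1) of 11 genes below the filter (red circles) and of their tested copies (blue squares). The entries under the plain symbol average 0.557 or less, that of NDUFA4, and copies of 9 of them average 10 or more.

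Of the 28 tested copies, 6 were higher and 3 lower in CP than in the germinal layers (32.1%, against 52.7% of all genes tested), and in OSVZ against VZ 1 was lower and none higher (3.57%, against 27.9%). ATP5F1Ali2 had 244, 250 and 209 scaled FPKM in CP, 147, 166 and 176 in OSVZ, 139, 173 and 196 in ISVZ, and 178, 215 and 169 in VZ, a difference of 0.44 ± 0.12 (limma adjusted p = 0.00994). The lowest CP library was below the highest VZ library. ATP5MC2li1, named for a c subunit of ATP synthase, had 63.0, 75.0 and 51.4 in CP, 79.5, 78.9 and 69.5 in OSVZ, 93.3, 102 and 123 in ISVZ, and 135, 127 and 111 in VZ. Its levels were graded in the same order of layers as those of SDHC and COX7A1, with CP overlapping OSVZ and ISVZ overlapping VZ. Its difference was -0.67 ± 0.12 in CP against the germinal layers (limma adjusted p = 8.1e-04) and -0.70 ± 0.15 in OSVZ against VZ (adjusted p = 0.00535). When each gene was summed with its copies before the fit, 11 of 73 tested genes were higher in CP and 9 lower, 27.4% in all, where 52.7% of all genes were called.

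Genes around oxidative phosphorylation were counted from lists in the same fit, in CP against the germinal layers, and those named passed the limma test unless stated. Of 12 tested citric acid cycle genes 6 were higher and 1 was lower, with a median log2 difference of 0.26: SUCLA2, the ATP-forming subunit of succinyl-CoA ligase, differed by 0.81, IDH3A of isocitrate dehydrogenase by 0.81 and fumarase FH by 0.45, whereas SUCLG2, the GTP-forming subunit, differed by -1.41. SUCLG2 had 0.1001, 0.180 and 0.103 scaled FPKM in CP, against 1.07, 1.37 and 1.13 in OSVZ, 1.83, 1.37 and 1.80 in ISVZ, and 3.47, 4.85 and 2.82 in VZ. Of 9 genes of pyruvate entry 2 were higher and 3 lower (median 0.14), among them the pyruvate dehydrogenase subunit DLAT at 0.57, the carrier subunit MPC2 at 0.44 and the inhibiting kinases PDK4 at -1.83 and PDK1 at -0.40. PDK4 had 0.565, 0.454 and 0.360 scaled FPKM in CP. SUCLG2 and PDK4 entered the test only through germinal libraries, so their calls describe the levels and are no independent result. Of 12 regulators of mitochondrial biogenesis none was higher and 6 were lower (median -0.29), with NRF1, a transcription factor of respiratory genes, at -0.65, its counterpart GABPA at -0.45, the mitochondrial helicase TWNK at -0.60 and the mitochondrial DNA polymerase POLG at -0.79. PPARGC1A, the best known coactivator of the programme, had a log2 difference of 0.06 (limma adjusted p = 0.790). Its means were low, at 0.962 scaled FPKM in CP, 0.774 in OSVZ, 0.483 in ISVZ and 1.62 in VZ. In ISVZ against VZ it differed by -0.81 ± 0.21 (limma adjusted p = 0.0367) and in OSVZ against VZ by -0.61 ± 0.21 (adjusted p = 0.0524). It would not have passed the filter without the VZ libraries, so the ISVZ call describes the levels.

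Import and cristae genes counted 7 higher and 2 lower of 14 (median 0.27), led by TIMM44 at 1.05 and TOMM70 at 0.62 of the import machinery, CHCHD6 of the cristae junctions at 1.01 and the import channel TIMM23 at 0.60; TIMM44 overlaps CTXN1, which averaged 94.2 scaled FPKM. Carriers of ATP exchange counted 2 higher and none lower of 5 (median 0.51), the ADP/ATP carrier SLC25A4 at 0.87 and the outer membrane channel VDAC3 at 0.51. Of 8 genes of uncoupling and alternative electron entry 2 were higher, including glycerol-3-phosphate dehydrogenase GPD2 at 0.61, and 4 were lower (median -0.12), including the inner membrane carrier UCP2 at -1.40 and the electron transfer flavoprotein genes ETFB at -1.31 and ETFDH at -1.01. Assembly factors of complexes II to V gave 4 higher and 3 lower of 24 (median 0.06), with COA7 at 0.63, COX11 at -0.50, BCS1L at 0.46 and COX19 at 0.45, and TMEM70 at 0.57 was the only 1 called of 6 further complex I assembly genes. Mitochondrial ribosomal proteins gave 11 higher and 6 lower of 58 (median 0.04), among them MRPL34 at 1.17, MRPL18 at 0.89, MRPL48 at -0.74 and MRPL24 at 3.24, which overlaps HDGF. Among all genes tested, 24.0% were higher and 28.7% lower, with a median of -0.05. In OSVZ against VZ, where 11.7% of all genes were higher and 16.2% lower, import and cristae genes gave 2 higher and none lower of 14, uncoupling and alternative entry none higher and 3 lower of 8, and mitochondrial ribosomal proteins 2 higher and 2 lower of 58. The 13 subunits encoded in mitochondrial DNA were looked for by name, none was found among the gene IDs kept, and they were not analysed.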

How the data were processed

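The deposited tables, 1 for each library, give FPKM per gene with its bounds in Cufflinks layout, per the file headers. The submitters' processing notes name HISAT2 and Cufflinks. Versions, genome build, annotation and strand setting: not given in the sources used here. Each table has 81792 entries for 81418 gene IDs; entries sharing an ID (360 IDs) were summed and 4 IDs with a failed status left out. Libraries were scaled by the median of ratios over the 10200 genes that reached 1 FPKM in every library. Genes at 1 scaled FPKM or more in at least 3 libraries (14101) entered limma 3.58.1 (R 4.3.3) on log2(scaled FPKM + 1), a pseudocount of 1, with 1 mean per layer, 8 residual degrees of freedom, an intensity trend and two-sided tests, with Benjamini-Hochberg adjustment over all 14101 genes and a threshold of 0.05. The fit was tested on simulated data. No batch, date or depth in reads is given, so no within-batch value could be computed. Genes were named by rule: in each complex the most abundant and up to 3 called genes with the largest CP difference, up to 4 called genes in the other comparisons, the isoform families, genes called against most of their complex, all genes below the filter, and up to 4 called genes per pathway list; 1 gene that the rule names is not reported here, though all counts include it, and further genes named were chosen after their values were seen. The members and lists were chosen with earlier results of these data known. Levels are comparable between genes only as FPKM. Alternatives tried were a pseudocount of 0.1, no filter, a filter at 5 FPKM, 3 other scalings, no intensity trend, a replicate block, leaving out each library or VZ 1 and VZ 2, and summing copies.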

Additional observations from a re-analysis of the deposited data

How the results depend on the processing

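In CP against the germinal layers, 4 genes of the list were higher with no filter, with FPKM as deposited and with quantile normalisation, and 11 of 73 when copies were summed (9 lower, with 52.7% of all genes called); 4 were lower with no filter and without both VZ 1 and VZ 2. The F test called 5 with no filter and 5 without both. In OSVZ against VZ, 6 were lower with equal totals and 0 by limma without both (2 at an unadjusted p below 0.05), where 1 sample is left in VZ and is assumed to vary like the other layers. Leaving out 1 library at a time gave 2 to 12 higher and 3 to 7 lower in CP, 1 to 5 lower in OSVZ against VZ, and 6 to 12 in the F test. Among all genes, 6213 to 7502 were then called in CP, 2578 to 3981 in OSVZ against VZ and 6280 to 7291 in the F test. The cause of these changes was not tested. The signs of 3 uncalled genes reversed: UQCR10 at -0.0509 with quantile normalisation, and ATP5MC3 and COX5B without CP 2 (-0.0463 to 0.3235 and -0.0358 to 0.3024 over the 12 libraries left out). The titles number the libraries of each layer 1 to 3, but nothing says what a number shares. Deviations from the layer means correlated above 0.1 in 16 of 18 same-numbered pairs and in 2 of 36 others, and every library correlated best on average with its own number; this is a hint from the data, not from the design. With a replicate block 11 genes were higher in CP, now with ATP5IF1, ATP5PF, NDUFA9 and NDUFA11, and 7 lower, and 4 were lower in OSVZ against VZ, where the call of NDUFA5 was lost. Depth in reads is not known.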
